A study of Mus musculus with 212 samples.

Results

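The EDC and FB cells are 2 of the 6 reference cell types that were measured singly by microfluidic quantitative PCR, and they stand here for endothelial cells and fibroblasts. The 5 EDC and 5 FB cells were taken by the cell names in the reference table, 10 of the 30 reference cells and of the 200 cells in the series; no measured value entered the rule, though it was set with earlier results of these data known. All 42 TaqMan assays, of 33 genes, were compared. The labels give embryoid bodies and mouse embryos as the joint source of the reference cells and list the types by abbreviation only. No genotype, strain, age, treatment, animal or culture is given for either type, nor is the source of each type, so EDC and FB each count as 1 sample. The 5 cells of a type show the spread between cells and are not replicates of a condition. For this reason no difference was tested, and no p-value is given. A difference between types and one between the cultures or embryos behind them cannot be told apart.

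Endothelial cells line blood vessels and the inner face of the heart. They hold together through the junction protein VE-cadherin, respond to vascular endothelial growth factor through the receptor Flk-1, and store von Willebrand factor for blood clotting. Fibroblasts make up much of the supporting tissue of the heart and secrete matrix proteins such as fibronectin. Vimentin, the intermediate filament protein often used to mark fibroblasts, is also made by endothelium and other mesenchymal cells.

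Values are given as 25 minus Ct, where Ct is the quantification cycle and 25 is the entry of an assay without signal. A value is thus the number of PCR cycles above the detection limit, each cycle being 1 unit on the log2 scale at full efficiency, and 0 stands for not detected. EDC cells detected 11, 11, 12, 15 and 12 assays and FB cells 12, 10, 8, 11 and 11. The no-template column of the table had a signal on 0 of 42 assays and the positive control on 42 of 42. No EDC or FB cell recurred in another column of the 7 tables.

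The endothelial genes were detected in EDC cells and in no FB cell, while the mesenchymal genes Vim and Fn1 were detected in every cell of both types. At a difference of at least 1 cycle between means, 6 of the 42 assays were higher in EDC cells (14.3%) and 7 were lower (16.7%). The 6 were Cdh5, Vwf, Pecam1, Flk-1, Hand2 and Vcam1. The 7 were Gata4-2, Mef2C-1, Sox2, Myl2, Mef2C-2, Actb and Sm22A. With each cell centred on its Actb the split was 11 higher and 1 lower. With each cell centred on its median detected assay it was 5 higher and 10 lower. Both splits depend in part on the value filled in for undetected assays. For 3 assays every EDC cell lay above every FB cell (7.14% of the panel), and for 0 assays did every EDC cell lie below every FB cell (0%). Of the panel, 21 assays were detected in at least 1 of the 10 cells: 6 in EDC cells alone, 6 in FB cells alone and 9 in cells of both types.

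**Figure D1:**
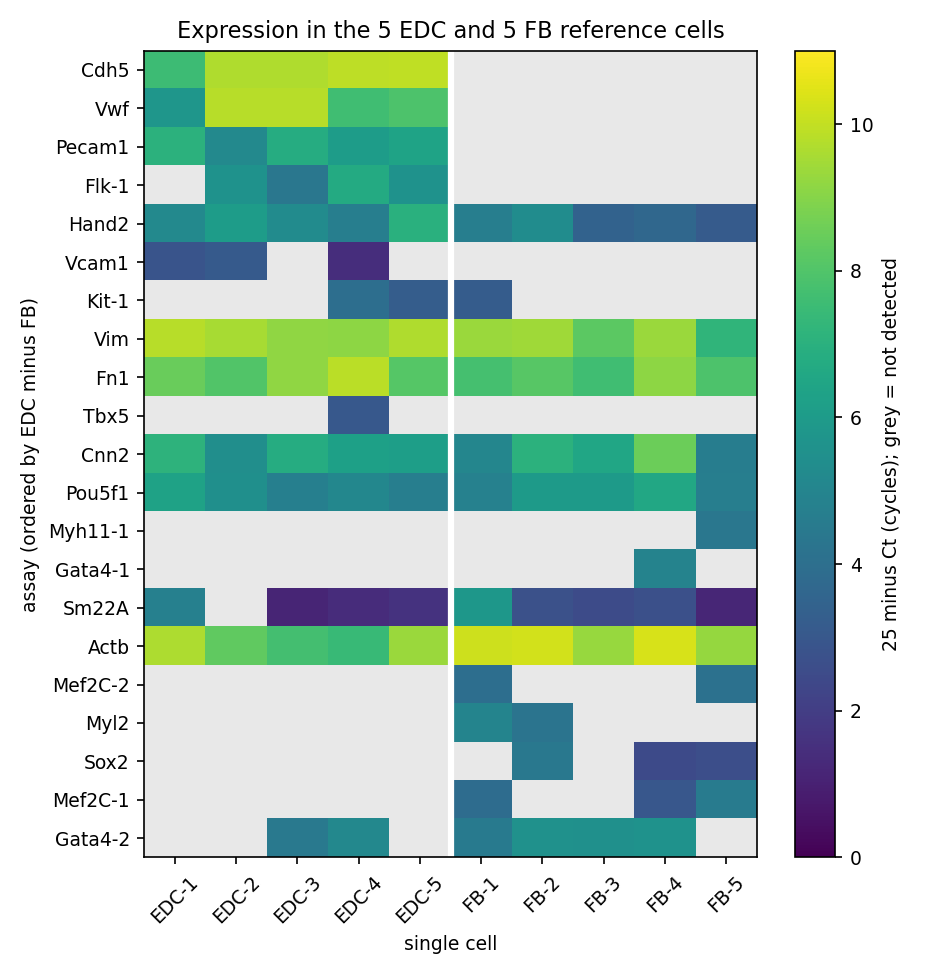
Expression of the 21 detected assays (rows, ordered by the difference of means) in each EDC and FB cell (columns), as 25 minus Ct in cycles on a colour scale, with grey for not detected. Cdh5, Vwf and Pecam1 fill all 5 EDC columns and none of the FB columns, whereas Vim, Fn1, Cnn2, Hand2, Pou5f1 and Actb fill all 10.

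All 4 endothelial assays were higher in EDC cells, beside 14.3% of the whole panel, a share that includes them. Their median difference was 7.25 cycles, against a median of 0 over all 42 assays and -0.01 over the 21 detected ones. Cdh5, which encodes VE-cadherin, was at 7.52, 9.68, 9.70, 9.90 and 9.96 cycles in EDC cells, against 0 in every FB cell. Its mean was 9.35 ± 1.03 cycles in EDC cells (SD between cells, n = 5). The 5 EDC values were far from the detection limit, so the ranges of the types were apart by more than 7 cycles. Vwf, the gene of von Willebrand factor, was at 5.77, 9.83, 9.82, 7.62 and 7.94 cycles in EDC cells and listed at 0 in all FB cells. Its EDC mean was 8.20 ± 1.70 cycles, a wider spread than that of Cdh5.

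Pecam1, an adhesion molecule of the junctions between endothelial cells, was at 7.06, 5.16, 6.82, 6.10 and 6.38 cycles in EDC cells, against 0 in every FB cell. Its EDC mean was 6.30 ± 0.74 cycles, the narrowest spread of the 4 endothelial assays. Flk-1, the assay of the receptor gene Kdr, was at 0, 5.62, 4.35, 6.73 and 5.63 cycles in EDC cells and at 0 in all FB cells. The EDC range of Flk-1 therefore touched the FB range through a single cell, EDC-1. The mean of Flk-1 over the EDC cells was 4.46 ± 2.63 cycles, and 5.58 without EDC-1. For Cdh5, Vwf and Pecam1 FB cells sat at the detection limit and every EDC cell above it, so the difference is a lower limit and no fold is given. For Flk-1 EDC-1 was at the limit too, so its difference is no such bound. A count of 0 of 5 FB cells allows a detecting share of up to 52.2% (exact Clopper-Pearson 95% interval, counting error only), and 5 of 5 EDC cells allows one down to 47.8%.

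EDC-1 stood apart from the other EDC cells on these genes. It lacked Flk-1 and had the lowest Cdh5 (7.52 against 9.68 to 9.96 in the others) and the lowest Vwf (5.77 against 7.62 to 9.83). It also had the highest Pecam1, 7.06 against 5.16 to 6.82. Its Sm22A, 4.80 cycles, was above the 0 to 1.59 of the other EDC cells. Summed over the 4 endothelial assays it reached 20.4 cycles, while the other EDC cells reached 29.9 to 30.7 and all FB cells 0. Its Actb, 9.66 cycles, was the highest of the EDC cells, and it detected as many assays as EDC-2. Without EDC-1 the mean of Cdh5 in EDC cells was 9.81, that of Vwf 8.80 and that of Pecam1 6.11.

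Promoter sequence is shown for a gene detected on the EDC side alone (Kdr, read by the Flk-1 assay), a gene detected on the FB side alone (Mef2c) and a gene detected in all 10 cells (Vim). The windows run from 250 bases before to 50 after a RefSeq start on GRCm38.p6. They are chr5:75978406-75978705 on the minus strand for Kdr, chr13:83503784-83504083 on the plus strand for Mef2c, the first of 3 starts listed, and chr2:13574061-13574360 on the plus strand for Vim. Capitals mark GGAA on either strand (TTCC on the strand shown), the core that ETS factors, a family with roles in endothelial genes, recognise.
Kdr: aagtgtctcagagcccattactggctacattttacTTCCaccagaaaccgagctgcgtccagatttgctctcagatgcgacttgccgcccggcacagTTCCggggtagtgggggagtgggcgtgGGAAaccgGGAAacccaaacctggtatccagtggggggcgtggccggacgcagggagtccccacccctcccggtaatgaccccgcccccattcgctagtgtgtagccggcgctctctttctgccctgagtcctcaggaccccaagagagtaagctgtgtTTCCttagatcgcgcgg
Mef2c: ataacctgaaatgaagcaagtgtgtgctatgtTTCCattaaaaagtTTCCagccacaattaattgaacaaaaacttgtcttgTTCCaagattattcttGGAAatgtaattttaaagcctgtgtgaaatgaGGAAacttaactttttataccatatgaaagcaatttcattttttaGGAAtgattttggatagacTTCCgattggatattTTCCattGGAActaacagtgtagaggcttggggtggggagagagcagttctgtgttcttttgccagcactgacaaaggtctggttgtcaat
Vim: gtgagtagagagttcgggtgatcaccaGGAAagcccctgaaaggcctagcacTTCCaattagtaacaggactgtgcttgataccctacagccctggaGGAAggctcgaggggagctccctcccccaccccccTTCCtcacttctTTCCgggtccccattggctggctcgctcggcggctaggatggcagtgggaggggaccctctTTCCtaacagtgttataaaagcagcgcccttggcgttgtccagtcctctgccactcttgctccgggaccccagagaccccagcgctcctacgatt
The core occurred 5 times in the Kdr window, 9 times in the Mef2c window and 6 times in the Vim window. It was present in 95.98% of the 32851 promoter windows of the same length, with a median of 3, and 28.6%, 1.59% and 15.7% of windows held at least as many as Kdr, Mef2c and Vim. All 3 windows thus held the core, whichever cells detected the gene, and a match is not a bound site.

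Hand2 and Vcam1 completed the 6 assays that were higher in EDC cells. Hand2, a basic helix-loop-helix factor of the developing heart, was at 5.17, 6.09, 5.30, 4.71 and 6.98 cycles in EDC cells, against 4.69, 5.36, 3.45, 3.66 and 3.17 in FB cells. It was detected in all 10 cells and the ranges overlapped, with means of 5.65 ± 0.89 and 4.07 ± 0.92 cycles in EDC and FB cells (SD, n = 5 each). The difference of 1.58 cycles exceeded each SD. It became 2.96 with centring on Actb and 0.46 with centring on the median.

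Vcam1, an adhesion molecule that binds leukocytes on activated endothelium, was at 2.86, 3.13, 0, 1.46 and 0 cycles in EDC cells, against 0 in all FB cells. Its signals were low and in 3 of 5 EDC cells. With a detection limit of Ct 23 its difference was 0.40 cycles, against 1.49 at Ct 25. Vcam1 was also not detected in any of the 20 cells of the other 4 reference types. Kit-1, an assay of the stem cell factor receptor, was found in EDC-4 and EDC-5 at 3.99 and 3.25 cycles and in FB-1 at 3.19. Kit-2, the other Kit assay, gave 0 in all 10 cells. The difference of Kit-1, 0.81 cycles, reached 1.17 without EDC-1, EDC-2 or EDC-3 and 1.45 without FB-1.

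Fibroblast and mesenchymal genes did not set the types apart as measured. Vim was at 9.80, 9.54, 9.15, 9.12 and 9.69 cycles in EDC cells, against 9.32, 9.45, 8.23, 9.34 and 7.20 in FB cells. Fn1, the gene of fibronectin, was at 8.48, 8.01, 9.16, 9.87 and 8.09 cycles in EDC cells, against 7.74, 8.15, 7.61, 9.14 and 7.95 in FB cells. Both were detected in every cell, with overlapping ranges, and both means were slightly higher in EDC cells, by 0.75 cycles for Vim and 0.60 for Fn1. Pdgfra, a receptor of fibroblasts and early mesoderm, was detected in 0 of 5 EDC and 0 of 5 FB cells. Of the 3 assays of this list, 0 were at least 1 cycle higher or lower. Over the whole panel 14.3% were higher and 16.7% lower, so this count is too small to set the list apart. Pdgfra was thus at 0 in the FB cells, and every assay that all 5 FB cells expressed was also found in EDC cells. The FB cells are called so by their cell names, and the panel did not mark them against EDC cells by a fibroblast gene.

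Actb, the cytoskeletal actin that serves as housekeeping assay, was at 9.66, 8.30, 7.73, 7.40 and 9.33 cycles in EDC cells, against 10.17, 10.23, 9.32, 10.33 and 9.25 in FB cells. EDC-1 and EDC-5 reached the FB range, the other EDC cells lay below it, and the means were 8.48 ± 0.98 in EDC and 9.86 ± 0.53 in FB cells (SD, n = 5 each), 1.38 cycles lower in EDC cells. Less RNA per cell and less Actb per cell cannot be told apart here. Centring each cell on Actb raised the differences of the 9 assays detected in both types by a median of 1.38 cycles. Centring on the median detected assay moved them by -1.12. On Actb, Vim and Fn1 were higher in EDC cells by 2.13 and 1.98 cycles, and on the median detected assay their differences were -0.37 and -0.52. The direction for these mesenchymal genes hence rests on the scaling. In some cells the median detected assay was a gene that differed. It was Pecam1 in EDC-1 and EDC-4, Hand2 in EDC-2, Gata4-2 in FB-4 and Mef2C-1 in FB-5. In EDC-3, EDC-5, FB-1 and FB-2 the median was the midpoint of a pair of assays that included such a gene. That centre is thus not independent of the differences between the types.

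**Figure D2:**
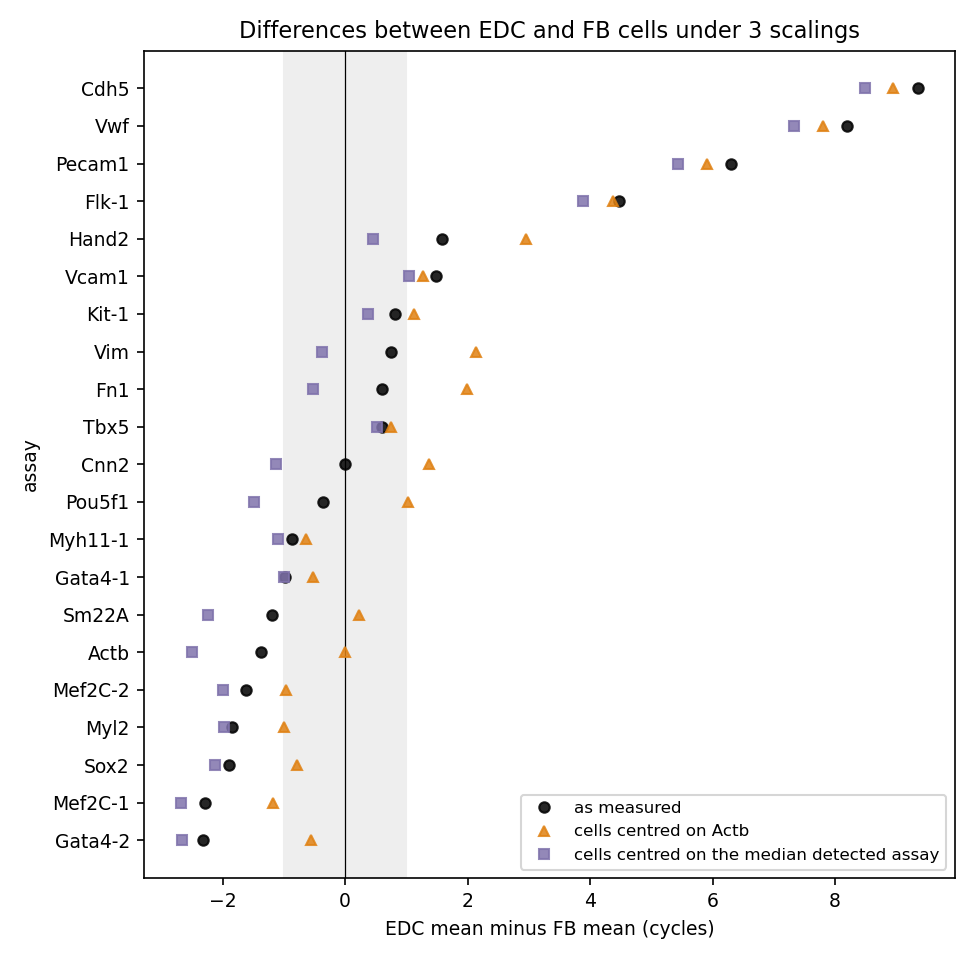
EDC mean minus FB mean in cycles (horizontal axis) for the 21 detected assays (rows), as measured (circles), with cells centred on Actb (triangles) and on their median detected assay (squares). The grey band marks differences under 1 cycle. Cdh5, Vwf, Pecam1 and Flk-1 lie at 3.88 cycles or more under all 3 scalings, while Vim, Fn1, Cnn2, Pou5f1 and Sm22A change side.

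The assays lower in EDC cells were mostly found in some FB cells and in no EDC cell. Of the 14 cardiac progenitor assays, 1 was higher (Hand2) and 3 were lower (Gata4-2, Mef2C-1 and Mef2C-2), of which a pair are assays of the same gene. Over the whole panel 14.3% of assays were higher and 16.7% lower, and the list is not set apart from the panel by these counts. Mef2C-1, an assay of the muscle and vascular transcription factor gene Mef2c, was at 0 in all EDC cells, against 3.87, 0, 0, 2.98 and 4.57 cycles in FB cells. Mef2C-2 was at 0 in all EDC cells, against 3.96 in FB-1, 4.12 in FB-5 and 0 in the other FB cells. Both assays of the gene thus found it in FB-1 and FB-5, and Mef2C-1 also in FB-4. The differences were -2.28 cycles for Mef2C-1 and -1.62 for Mef2C-2. Without FB-5, Mef2C-2 was at -0.99, and without FB-1 at -1.03. It was at -0.82 with a detection limit of Ct 23 and at 0 with medians over cells.

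Gata4-2, an assay of the zinc finger factor Gata4 of heart and endoderm, was at 0, 0, 4.44, 5.14 and 0 cycles in EDC cells, against 4.49, 5.55, 5.51, 5.60 and 0 in FB cells. It was detected in 2 of 5 EDC and 4 of 5 FB cells, and the detecting cells averaged 4.79 cycles in EDC and 5.29 in FB. The difference over all cells was -2.31 cycles, beside SDs of 2.64 in EDC and 2.41 in FB cells. Gata4-1 was found in FB-4 alone, at 4.91 cycles. In 5 of the 10 cells Gata4-2 gave a signal where Gata4-1 gave none.

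Sox2, a pluripotency and neural factor, was at 0 in all EDC cells, against 0, 4.41, 0, 2.45 and 2.65 cycles in FB cells, a difference of -1.90. Without FB-2 this was -1.27, and with a detection limit of Ct 23 it was -0.70. Myl2, the gene of the ventricular myosin light chain, was at 0 in all EDC cells, against 4.98 in FB-1, 4.23 in FB-2 and 0 in the other FB cells. It was the single detected assay of the 10 cardiomyocyte assays, and its difference of -1.84 became -1.06 without FB-1, -1.25 without FB-2 and 0 with medians over cells. The genes found in part of the FB cells were not in the same cells: Mef2C-1 was in FB-1, FB-4 and FB-5, Sox2 in FB-2, FB-4 and FB-5, and Myl2 in FB-1 and FB-2. FB-3 had none of these and detected the fewest assays, 8. With centring on Actb, Mef2C-1 (-1.18) was the lower assay that kept a difference of at least 1 cycle. Myl2 (-0.996), Mef2C-2 (-0.96), Sox2 (-0.79) and Gata4-2 (-0.56) did not keep it. Undetected assays were filled in at -8.08 there, and Sox2 in FB-4, 2.45 cycles as measured, lay at -7.88. The fill thus brought weak FB signals close to not detected, and its share in these losses was not tested.

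Smooth muscle genes were low or absent in both types, and 1 of the 3 assays (Sm22A) was at least 1 cycle lower in EDC cells, beside 16.7% of the panel, a count too small to set the list apart. Sm22A, an actin-binding protein of smooth muscle, was at 4.80, 0, 1.14, 1.41 and 1.59 cycles in EDC cells, against 5.81, 2.74, 2.51, 2.70 and 1.17 in FB cells. The ranges overlapped throughout, and the difference of -1.20 was smaller than each SD, 1.80 in EDC and 1.71 in FB cells. It was -0.75 without EDC-2, -0.49 without FB-1, -1.95 without EDC-1 and 0.22 on Actb. Myh11-1, the smooth muscle myosin assay, was found in FB-5 alone, at 4.37 cycles, and Cnn1, the calponin of smooth muscle, in 0 of 10 cells. In the SMC cells of the same table Sm22A averaged 11.91 and Myh11-1 11.75 cycles.

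Cnn2, a calponin of non-muscle cells, and Pou5f1, a pluripotency factor, were detected in all 10 cells at like levels. Cnn2 was at 7.11, 5.43, 6.82, 6.25 and 6.17 cycles in EDC cells, against 5.03, 7.09, 6.53, 8.55 and 4.64 in FB cells, with means of 6.36 ± 0.65 and 6.37 ± 1.59 (SD, n = 5 each). Pou5f1 was at 6.34, 5.46, 4.75, 5.11 and 4.72 cycles in EDC cells, against 4.85, 6.0, 6.0, 6.60 and 4.72 in FB cells. Their differences of -0.01 and -0.36 were under each type's SD. They too turned with the scaling, to 1.37 and 1.02 on Actb and to -1.13 and -1.48 on the median detected assay. Pou5f1 was detected in all 30 reference cells, with means of 5.28 ± 0.67 in EDC and 5.63 ± 0.82 in FB cells, against 8.99 ± 0.65 in ES cells (SD, n = 5 each). What the Pou5f1 signal of differentiated cells comes from was not tested. Tbx5, a T-box factor of the heart, was found in EDC-4 alone, at 3.02 cycles.

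The other 21 assays gave no signal in any of the 10 cells, although the positive control had all 21, at 6.88 to 16.27 cycles. Among them were 9 of the 10 cardiomyocyte assays: Actn2 and both assays each of Tnnt2, Tnni3, Myh6 and Myh7. The progenitor genes Isl1, Nkx2.5, Hand1 and Mesp1 and the T-box gene Tbx1 were also without signal, as were the chamber and pacemaker genes Sln and Hcn4, and Pdgfra, Cnn1 and Kit-2. Of these 21 assays, 19 were detected in at least 1 cell of the other 4 reference types, and the exceptions were Isl1-1 and Tbx1. These assays give no comparison between EDC and FB cells at this detection limit.

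The other reference types are labelled CPC, CM, SMC and ES. Cdh5 and Vcam1 were found in EDC cells and in 0 of these 20 cells. Vwf was found in 1 of them, an SMC cell at 1.41 cycles. Pecam1 and Flk-1 were shared more widely. Pecam1 was detected in 4 of 5 ES cells, at 7.09, 5.09, 3.78 and 6.27 cycles, and in 1 CPC cell at 5.53. The ES range overlapped the EDC range of 5.16 to 7.06. Flk-1 was detected in 3 of 5 CPC cells, at 5.84, 4.04 and 7.21 cycles, which overlapped the EDC values too. FB cells lacked all 4 genes, as CM cells did.

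The genes seen in part of the FB cells had their highest means in other types. Mef2C-1 averaged 2.28 ± 2.16 cycles in FB and 5.55 ± 1.02 in SMC cells, Myl2 1.84 ± 2.54 in FB and 10.16 ± 0.65 in CM cells, and Sox2 1.90 ± 1.90 in FB and 5.02 ± 1.39 in ES cells (SD, n = 5 each). Vim was at 9.46 ± 0.31 in EDC and 8.71 ± 0.98 in FB cells, below the means of CPC and SMC cells and above those of CM and ES cells. The highest Fn1 and Hand2 means of the 6 types were those of EDC cells, by margins within the spread between cells: Fn1 averaged 8.72 ± 0.79 in EDC and 8.36 ± 1.26 in CPC cells, and Hand2 5.65 ± 0.89 in EDC and 5.60 ± 1.07 in CPC cells. FB cells did not have the highest mean of any assay detected in the 30 cells.

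**Figure D3:**
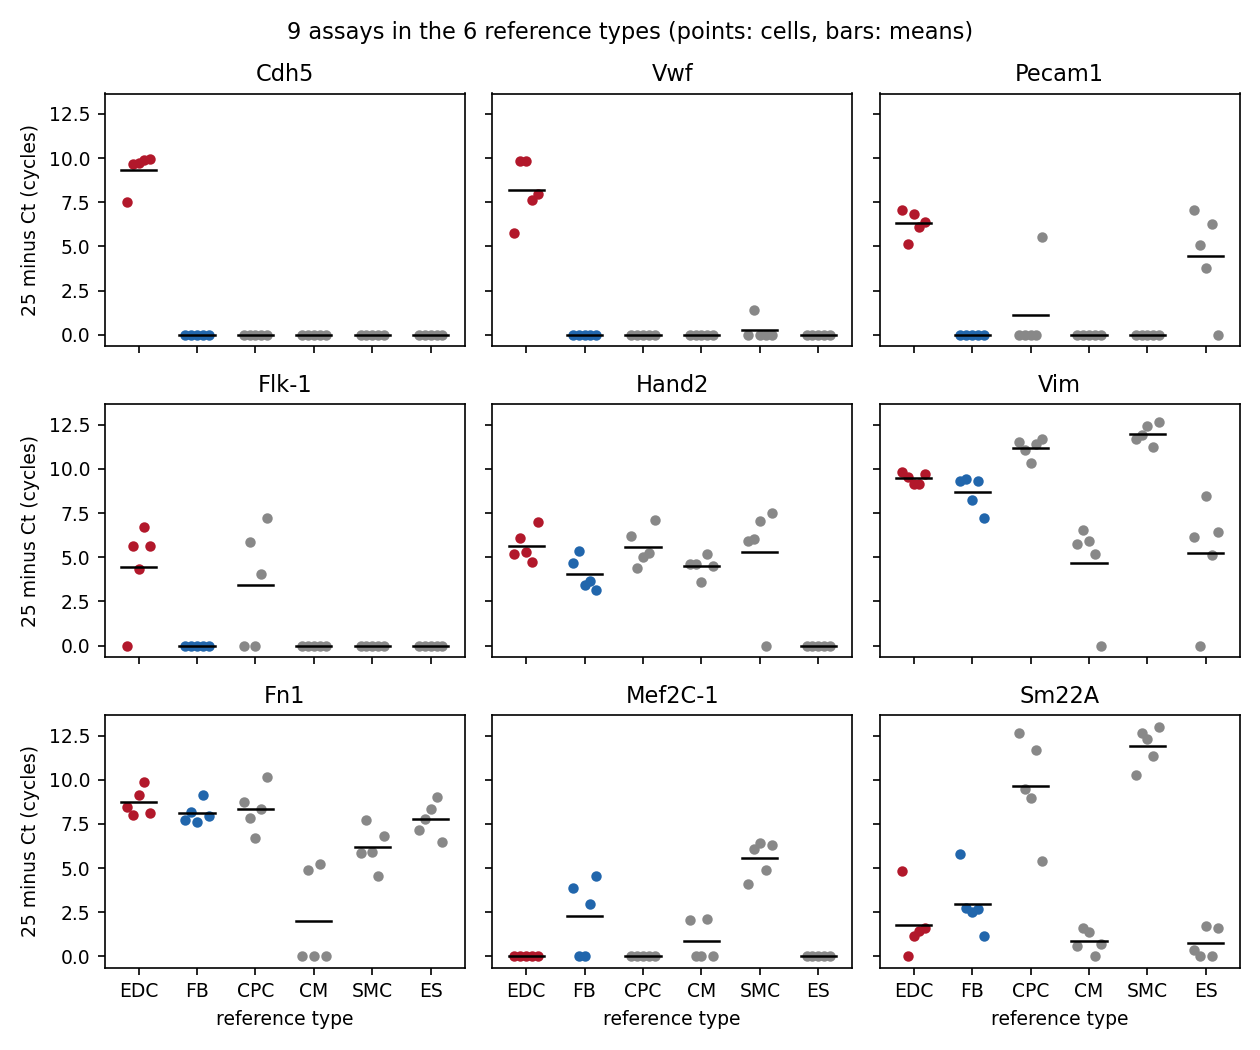
Expression as 25 minus Ct in cycles (vertical axis) of 9 assays in the 5 cells of each reference type (horizontal axis), with points for cells, bars for means, and EDC (red) left of FB (blue) and the other types (grey). Cdh5 is above 0 in EDC cells alone, Pecam1 also in ES cells and 1 CPC cell, and Flk-1 also in CPC cells, while Vim and Fn1 are high in several types.

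Each cell resembled its own type most. Over the 41 assays other than Actb, the Pearson correlation with the EDC mean was 0.90 to 0.97 for EDC cells and 0.51 to 0.65 for FB cells, a cell's own value being left out of the mean. With the FB mean it was 0.53 to 0.70 for EDC cells and 0.80 to 0.94 for FB cells. Undetected assays shared by all cells add to every one of these correlations, which are given as a description. The EDC cell nearest to the FB mean was EDC-1, and the FB cell least like its own type was FB-5. Between cells, the median correlation was 0.93 among the 10 pairs of EDC cells, 0.82 among the 10 pairs of FB cells and 0.56 among the 25 mixed pairs, whose highest value, 0.71, lay under the lowest within either type, 0.74.

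**Figure D4:**
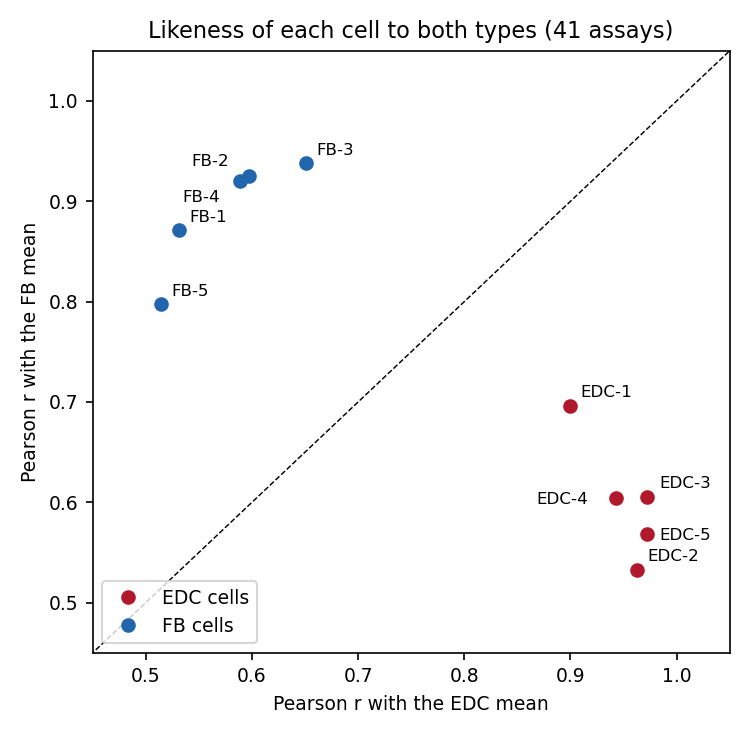
Pearson correlation of each cell's 41 assay values with the EDC mean (horizontal axis) and with the FB mean (vertical axis), the cell itself left out, with a dashed line where both are equal. The 5 EDC cells (red) lie below the line and the 5 FB cells (blue) above it, with EDC-1 at 0.90 and 0.70 and FB-5 at 0.51 and 0.80.

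The runner-up types differed within FB. The second best match of all 5 EDC cells was FB. That of FB-2, FB-3 and FB-4 was ES, at correlations of 0.69 to 0.70. For FB-1 and FB-5, the FB cells with both Mef2C assays, it was SMC, at 0.65 and 0.72. FB-1 also had the highest FB value of Sm22A (5.81 cycles), and FB-5 the lowest (1.17) but the only Myh11-1 signal (4.37). Between type means, EDC was most correlated with FB (0.62) and then with ES (0.56). FB was more correlated with ES (0.71), SMC (0.66) and CPC (0.66) than with EDC (0.62). By mean absolute difference, FB lay 0.95 cycles from ES, 1.16 from EDC, 1.44 from SMC and 1.58 from CPC. The place of EDC against SMC and CPC thus depends on the measure. These values share the assays detected in none of the types compared, and no order among them was tested.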

How the data were processed

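Per the labels' protocols, each cell's RNA was reverse transcribed and pre-amplified with the TaqMan assays, then read on a Fluidigm BioMark system. The deposited values are Ct in 7 tables, from which the 10 EDC and FB columns of the reference table were used, and the other tables to look for recurring cells over the 39 to 42 assays that share a name. How Ct was thresholded and filtered is not given in the sources used here, and since Actb itself varied between cells the values are not scaled to it.

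Expression was 25 minus Ct, with 0 for not detected. Means, SDs, detecting cells and exact 95% intervals were computed with numpy 2.4.6 and scipy 1.17.1. Precision is limited by 5 cells per type and by the detection limit. All 42 assays were in the comparison: those detected in at least 1 of the 10 cells are named with values, the others by name. Members, marker lists and the size rule of 1 cycle were chosen with earlier results of these data known. Tbx1 belongs to no list. Sm22A fits both Tagln and Tagln2. Promoters are from RefSeq tables of GRCm38.p6, by symbol, for 3 genes. Alternatives were centring cells on Actb or their median detected assay (with the lowest centred value over the 10 cells filled in where nothing was detected), Ct 23 as limit, means over detecting cells (at least 3 per type), medians, a 2-cycle rule and leaving out each cell. The computation of differences and counts was checked on simulated data with known answers. The simulated levels were set above the detection limit, so the check was not built to test how undetected assays are handled.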

Additional observations from a re-analysis of the deposited data

Results flagged for a closer look

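In EDC or FB cells, 32 sets of 5 values (an assay, or the number of assays detected) were examined. In 7 of them a cell's gap to its nearest neighbour was over 0.71 of the set's range. Chance gives about 1 in 20 for independent values from a normal distribution. The assay values have a floor and the numbers of assays detected are whole counts with ties, so that rate does not apply to either. In 4 of the 7 the cell was the only one of its type to detect the assay, which gives such a gap by construction. These were Tbx5 in EDC-4 (3.02 cycles), Kit-1 in FB-1 (3.19), Gata4-1 in FB-4 (4.91) and Myh11-1 in FB-5 (4.37). FB-5 was the only FB cell without Gata4-2 (0 cycles). Cdh5 in EDC-1, at 7.52 cycles, lay under the other EDC cells, and EDC-4 detected 15 assays, more than the 11 or 12 of the other EDC cells.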

How the results depend on the processing

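As measured, EDC cells had 6 higher and 7 lower assays. Actb as the centre gave 11 and 1, with Kit-1, Cnn2, Vim, Fn1 and Pou5f1 added to the higher ones and Mef2C-1 the remaining lower one, and it turned Sm22A to 0.22. The median detected assay as the centre gave 5 and 10. Both splits depend in part on the value filled in for undetected assays. Means over detecting cells, possible for 7 assays, gave 1 (Hand2) and 1 (Actb). A limit of Ct 23 gave 5 and 4 (Vcam1, Mef2C-2, Sm22A and Sox2 dropped out), medians 6 and 5 (Mef2C-2 and Myl2 dropped out), and a rule of 2 cycles 4 and 2. Leaving out single cells gave 6 to 7 higher (Kit-1 joined) and 6 to 9 lower (Gata4-1 and Myh11-1 joined without another FB cell, Sm22A dropped out without EDC-2 or FB-1, Mef2C-2 without FB-5). Cdh5, Vwf, Pecam1 and Flk-1 were higher under every alternative that could be computed for them. Their median difference, 7.25 cycles, was 5.25 with Ct 23 as limit, which lowers each value by construction, and 6.39 to 7.46 under the others. Assays found in few cells (Vcam1, Kit-1, Mef2C-1, Mef2C-2, Myl2, Sox2, and Tbx5, Gata4-1 and Myh11-1 in 1 cell each) rest on at most 3 detecting cells in all. No paired analysis was possible because cell numbers of EDC and FB name cells, with no shared animal or culture.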
